A study of Mus musculus with 32 samples.

Results

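The glomerular and vascular cell genes described here are 32 genes, named as a list of mouse symbols, that are widely used as markers of podocytes (10 genes) or of endothelial cells (22 genes). They are 32 of the 53700 gene IDs in the count table, and all of them passed the filter on low counts that left 13961 genes for testing. The rule is a list of names and sets no threshold on a measured value. RNA-seq was done on whole kidneys of C57BL/6 male mice of the iKspCre-Pkd1del line, in which tamoxifen activates a Cre recombinase driven by the Ksp-cadherin promoter in tubular epithelium and removes exons 2 to 11 of Pkd1. The wildtype group (n = 8) consisted of mice that were given no tamoxifen, per the protocol for this line, and was 109 days old. The PKD group (n = 12) received tamoxifen at 150 mg/kg on postnatal days 18 and 19 and was 95 days old. The PKD + Salsalate group (n = 12) was treated in the same way and had salsalate in the food at 2.5 g/kg for the last 2 weeks. Tamoxifen, gene deletion and age therefore differ together between wildtype and PKD kidneys and cannot be told apart. The promoter is known for its activity in tubular epithelium, so the deletion was not directed at the cells that these genes mark.

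Podocytes are the epithelial cells that wrap the glomerular capillaries with foot processes. Between these foot processes the slit diaphragm, built around nephrin, forms the last layer of the filter, and the transcription factor WT1 keeps the podocyte program on. Endothelial cells line the glomerular, peritubular and larger vessels of the kidney. They are held together by VE-cadherin and related junction proteins, they read VEGF and angiopoietin ligands through the receptors KDR, FLT1 and TEK, and their identity depends on ETS and SOX factors such as ERG, SOX17 and SOX18. In whole kidney, fewer cells of a type and less RNA per cell cannot be told apart. Transcripts of a marker made by other cells cannot be separated either, and both limits hold for every value below.

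Promoter sequence is shown for the genes called in the same direction against both sets of wildtype libraries (defined below) for which a RefSeq promoter window was given. Their direction did not depend on the wildtype set, but their number lies near the share of all genes with such calls (given below). A window was given for 19 of the 32 genes and for 3 of these 6, namely Eng, Nphs1 and Kdr, and Cdh5, Pecam1 and S1pr1 had none. The 250 bases before the gene start follow, from build GRCm38.p6, 5′ to 3′ on the strand of the gene, at chr2:32646345-32646594 (plus strand) for Eng, chr7:30459808-30460057 (plus strand) for Nphs1 and chr5:75978456-75978705 (minus strand) for Kdr. Capitals mark GGAAG, the core that ETS factors such as ERG can bind, searched on both strands, so that a match on the other strand reads CTTCC.
Eng: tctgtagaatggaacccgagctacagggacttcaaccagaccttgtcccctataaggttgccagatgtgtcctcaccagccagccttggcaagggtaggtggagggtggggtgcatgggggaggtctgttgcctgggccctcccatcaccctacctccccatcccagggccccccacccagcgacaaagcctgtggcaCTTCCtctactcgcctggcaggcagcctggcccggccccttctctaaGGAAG
Nphs1: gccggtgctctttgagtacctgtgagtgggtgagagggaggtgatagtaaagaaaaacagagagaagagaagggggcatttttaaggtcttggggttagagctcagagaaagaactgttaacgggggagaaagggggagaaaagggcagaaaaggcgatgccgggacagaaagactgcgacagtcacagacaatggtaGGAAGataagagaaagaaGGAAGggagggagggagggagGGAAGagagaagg
Kdr: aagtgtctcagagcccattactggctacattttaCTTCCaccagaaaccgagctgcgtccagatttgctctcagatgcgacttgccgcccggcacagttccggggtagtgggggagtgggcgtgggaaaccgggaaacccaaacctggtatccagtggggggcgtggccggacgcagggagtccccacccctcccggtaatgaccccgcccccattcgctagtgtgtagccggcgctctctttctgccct
The Eng window held 2 matches (1 on either strand), the Nphs1 window 3 (all on the strand of the gene) and the Kdr window 1 (on the other strand). A match was present in 64.1% of all 32851 windows of this length, with a median of 1 per window, and 10.7% of windows held 3 or more. The match is a description of the letters and not of binding.

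Total counts ranged from 11193136 to 109807664 per library (median 17242801), and the lowest count of any of the 32 genes in any kidney was 66. The names of wildtype libraries 1 to 5 end in the letter R, which the labels do not explain (the R-named set, n = 5), and those of wildtype libraries 6 to 8 (the plain-named set, n = 3) and of all PKD and PKD + Salsalate libraries do not. The share of counts on genes was 73.6% to 76.4% in the R-named set and 80.9% to 83.1% in the plain-named set, against 74.1% to 82.9% in PKD and 78.6% to 82.7% in PKD + Salsalate. Between these wildtype sets, 15 of the 32 genes were higher in the R-named set, where 24.4% of all genes tested were higher, and 3 were lower (Podxl, Plvap and Sema3g), where 23.7% of all genes were lower (edgeR quasi-likelihood test with Benjamini-Hochberg adjustment, threshold 0.05). The widest gap was in Erg, at a log2 difference of 1.92 (adjusted p = 9.42e-10). Comparisons of PKD with wildtype are therefore given against all 8 wildtype kidneys and against each set, and a gene with a value against all 8 alone had the same call (higher, lower or not called) in all 3 fits. Libraries are labelled as replicate kidneys with no animal named, and per the paper the 32 samples came from 32 mice. The p-values measure only the spread between these mice. As a check of the labels, Pkd1 had 68.7 ± 10.9 CPM (read counts relative to the library total, scaled by TMM) in wildtype, 92.1 ± 15.1 in PKD and 92.7 ± 15.1 in PKD + Salsalate (mean ± SD). The count covers the whole gene, so it does not check the deletion of its exons 2 to 11. Summed CPM of 8 proximal tubule markers was 8540 to 15000 in wildtype, 8900 to 11700 in PKD and 7870 to 10800 in PKD + Salsalate, the highest of all marker lists.

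Levels can be compared between genes only per length, and are given here as CPM per kilobase of exon in the 8 wildtype kidneys. Plvap, which forms the diaphragms of fenestrated endothelium, had the highest level of the 32 genes (46.7 ± 9.45), followed by Podxl, the main sialoprotein of the podocyte surface (22.6 ± 3.94), and Eng, a TGF-beta co-receptor of endothelium (21.3 ± 1.78). The order of Podxl and Eng depended on the wildtype set. In the R-named set Podxl had 20.1 ± 2.25 and Eng 22.0 ± 1.82, which differed by less than their spread, and in the plain-named set Podxl had 26.8 ± 1.67 and lay above Eng (20.0 ± 0.65). Erg stood next over all 8 at 13.7 ± 8.28, a place that it held in the R-named set (19.0 ± 5.34) and not in the plain-named set, where it had 5.00 ± 0.632 and Esam came after Eng (11.2 ± 0.377). The lowest levels were those of Plce1, a phospholipase C of podocytes (0.579 ± 0.172), Vwf, the clotting factor stored by endothelium (0.52 ± 0.104), and Thsd7a, a podocyte membrane protein (0.344 ± 0.0517). The remaining genes lay between 1.11 and 11.8 CPM per kilobase.

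More podocyte genes fell than rose in PKD kidneys when all 8 wildtype kidneys were used, and not when the plain-named set was. Of the 10 podocyte genes, 5 fell (Nphs1, Wt1, Synpo, Magi2 and Podxl), 1 rose (Cd2ap) and 4 did not pass the test, and their median log2 difference between PKD and all 8 wildtype kidneys was -0.22, against -0.01 over all genes tested. Over all 32 genes, 8 rose and 10 fell, in a comparison where 24.1% of all genes tested rose and 25.0% fell, so that both counts lie near or slightly above those shares. Nphs1, which encodes nephrin, was the podocyte gene that fell against either wildtype set.

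Nphs1 (chr7:30157740-30186675 on GRCm39, gene ID ENSMUSG00000006649) had 17.8 CPM at the lowest, 23.5 at the median and 35.9 at the highest in wildtype, and 15.7, 17.8 and 20.3 in PKD. The groups overlapped in wildtype replicates 4 and 5 (17.8 and 20.0 CPM), and all 12 PKD kidneys lay below the wildtype median. The log2 difference was -0.53 ± 0.11 (SE; adjusted p = 0.000232), and it was -0.56 against the R-named set and -0.49 against the plain-named set (adjusted p = 0.000567 and 0.00258). Leaving out any of the 32 kidneys kept it between -0.59 and -0.45, and it passed the threshold each time.

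The other slit diaphragm genes went in different directions. The level of Cd2ap, an adaptor that links nephrin to actin, was above that of Nphs1 in wildtype kidneys (5.67 and 3.85 CPM per kilobase). Which cells its transcripts came from was not tested. Cd2ap had 78.4, 92.2 and 115 CPM (lowest, median, highest) in wildtype and 94.7, 104 and 145 in PKD, a log2 difference of 0.23 ± 0.09 (adjusted p = 0.024). This call rested on wildtype replicates 6, 7 and 8 (78.9, 79.3 and 78.4 CPM): the adjusted p of Cd2ap was 0.0569, 0.0531 and 0.0569 without each of them in turn, and the difference was 0.47 against those 3 (adjusted p = 0.000757) and 0.10 against the R-named set (adjusted p = 0.344). Magi2, a scaffold of the same complex, fell by 0.37 on the log2 scale (SE 0.11, adjusted p = 0.00705). It fell by 0.64 against the R-named set (adjusted p = 1.13e-07), and the difference was 0.17 against the plain-named set (adjusted p = 0.172). Part of the exons of Magi2 lies under the predicted gene Gm29254 on the same strand, where reads cannot be assigned to either gene.

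Among the podocyte surface and cytoskeleton genes, Podxl and Synpo fell and Ptpro, Clic5 and Thsd7a did not pass the test. Podxl had 115, 104, 128, 95.0 and 112 CPM in wildtype replicates 1 to 5, and 143, 158 and 142 in replicates 6 to 8, against 95.6 to 126 in PKD (median 108). The PKD kidneys thus overlapped with the R-named set and lay entirely below the plain-named set. Its log2 difference was -0.19 ± 0.08 against all 8 (adjusted p = 0.0362), -0.02 against the R-named set (adjusted p = 0.828) and -0.44 against the plain-named set (adjusted p = 4.99e-05). The call on Podxl was lost in 9 of 32 fits that left out a kidney, namely without wildtype replicates 3, 6, 7 or 8 or PKD replicates 1, 4, 6, 8 or 11, with an adjusted p of up to 0.122 (without wildtype replicate 7).

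Synpo, an actin-bundling protein of foot processes, went the other way by wildtype set. It had 125, 118, 153, 101 and 150 CPM in wildtype replicates 1 to 5, 73.9, 56.3 and 68.5 in replicates 6 to 8, and 67.7, 80.5 and 93.4 (lowest, median, highest) in PKD. All PKD kidneys lay below the R-named set and overlapped with the plain-named set. Against all 8 wildtype kidneys Synpo fell by 0.39 on the log2 scale (SE 0.13, adjusted p = 0.0119). Against the R-named set it fell by 0.68 (adjusted p = 1.48e-07), and against the plain-named set it rose by 0.27 (adjusted p = 0.042). Without wildtype replicate 3 or 5 the adjusted p of Synpo was 0.051 and 0.0506. Of the genes that did not pass, Ptpro, a podocyte receptor phosphatase, differed by -0.03 (adjusted p = 0.841), Clic5, a foot process protein bound to ezrin, by -0.16 (adjusted p = 0.196, and it passed as lower without PKD replicate 2) and Thsd7a by -0.02 (adjusted p = 0.873).

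Wt1 had 7.68, 9.52 and 13.6 CPM in wildtype and 5.46, 7.51 and 8.20 in PKD, so that the groups overlapped only in wildtype replicate 7 (7.68 CPM), and all 12 PKD kidneys lay below the wildtype median. Its log2 difference was -0.43 ± 0.10 (adjusted p = 0.000382), and it passed without any of the 32 kidneys. It fell by 0.55 against the R-named set (adjusted p = 3.92e-05), and the difference was -0.22 against the plain-named set (adjusted p = 0.132). Plce1 differed by -0.25 against all 8 (adjusted p = 0.0833), with a fall of 0.51 against the R-named set (adjusted p = 4.46e-05) and a difference of 0.28 against the plain-named set (adjusted p = 0.0702). It passed as lower when wildtype replicate 6, 7 or 8 was left out, with an adjusted p of 0.0349, 0.0107 and 0.0354. Over the 10 podocyte genes, 0 rose and 5 fell against the R-named set, and 2 rose and 2 fell against the plain-named set. Of all genes tested, 30.7% rose and 28.9% fell in the first of these fits, and 20.9% and 19.9% in the second, so that the counts against the plain-named set were near the shares of all genes.

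Endothelial genes moved in both directions. Of the 22 genes, 7 rose (Pecam1, Cdh5, Plvap, Eng, Esam, Sox18 and S1pr1), 5 fell (Kdr, Flt1, Ehd3, Egfl7 and Erg) and 10 did not pass the test, with a median log2 difference of -0.01, equal to that of all genes. Both counts were near the 24.1% of all genes tested that rose and the 25.0% that fell. Of the 6 junction and surface genes 4 rose and 0 fell, of the 8 receptor genes 2 rose and 2 fell, of the 5 cytoplasmic and secreted genes 0 rose and 2 fell, and of the 3 transcription factors 1 rose and 1 fell. These counts depended on the wildtype set: against the R-named set 4 junction and surface genes rose and 0 fell and 2 receptor genes rose and 4 fell, and against the plain-named set 2 junction and surface genes rose and 0 fell and 5 receptor genes rose and 1 fell. Of all genes tested, 30.7% rose and 28.9% fell against the R-named set, and 20.9% and 19.9% against the plain-named set. Cdh5 rose and Kdr fell with no overlap between the PKD and wildtype kidneys, and no other of the 32 genes separated these groups, where 5.21% of all genes tested were higher and 2.07% lower without overlap.

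Cdh5 (chr8:104828231-104871143 on GRCm39, gene ID ENSMUSG00000031871) encodes VE-cadherin, the adhesion molecule of endothelial junctions. It had 20.0, 28.5 and 30.9 CPM (lowest, median, highest) in wildtype and 32.3, 45.5 and 53.8 in PKD. The lowest PKD kidney thus lay above the highest wildtype kidney. Cdh5 rose 1.63-fold, a log2 difference of 0.70 ± 0.09 (adjusted p = 9.63e-08), by 0.79 against the R-named set and by 0.57 against the plain-named set (adjusted p = 2.67e-07 and 0.000324).

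Kdr (chr5:76093487-76139884 on GRCm39, gene ID ENSMUSG00000062960) encodes the main signalling receptor for VEGF-A. It had 57.9, 66.9 and 99.2 CPM in wildtype and 35.7, 50.0 and 56.1 in PKD, with every PKD kidney below every wildtype kidney. The fold was 0.687, a log2 difference of -0.54 ± 0.09 (adjusted p = 3.57e-06). Kdr fell by 0.68 against the R-named set and by 0.29 against the plain-named set (adjusted p = 7.67e-08 and 0.00847). The lowest value of Kdr in PKD was that of replicate 4, the shallowest library. That kidney also had the lowest Cdh5 (32.3), Plvap (183) and Clic5 (45.5) and the highest Flt1 (116) and Egfl7 (92.2) of the PKD group, and without it the calls on Cdh5, Kdr, Plvap and Flt1 still passed.

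**Figure D1:**
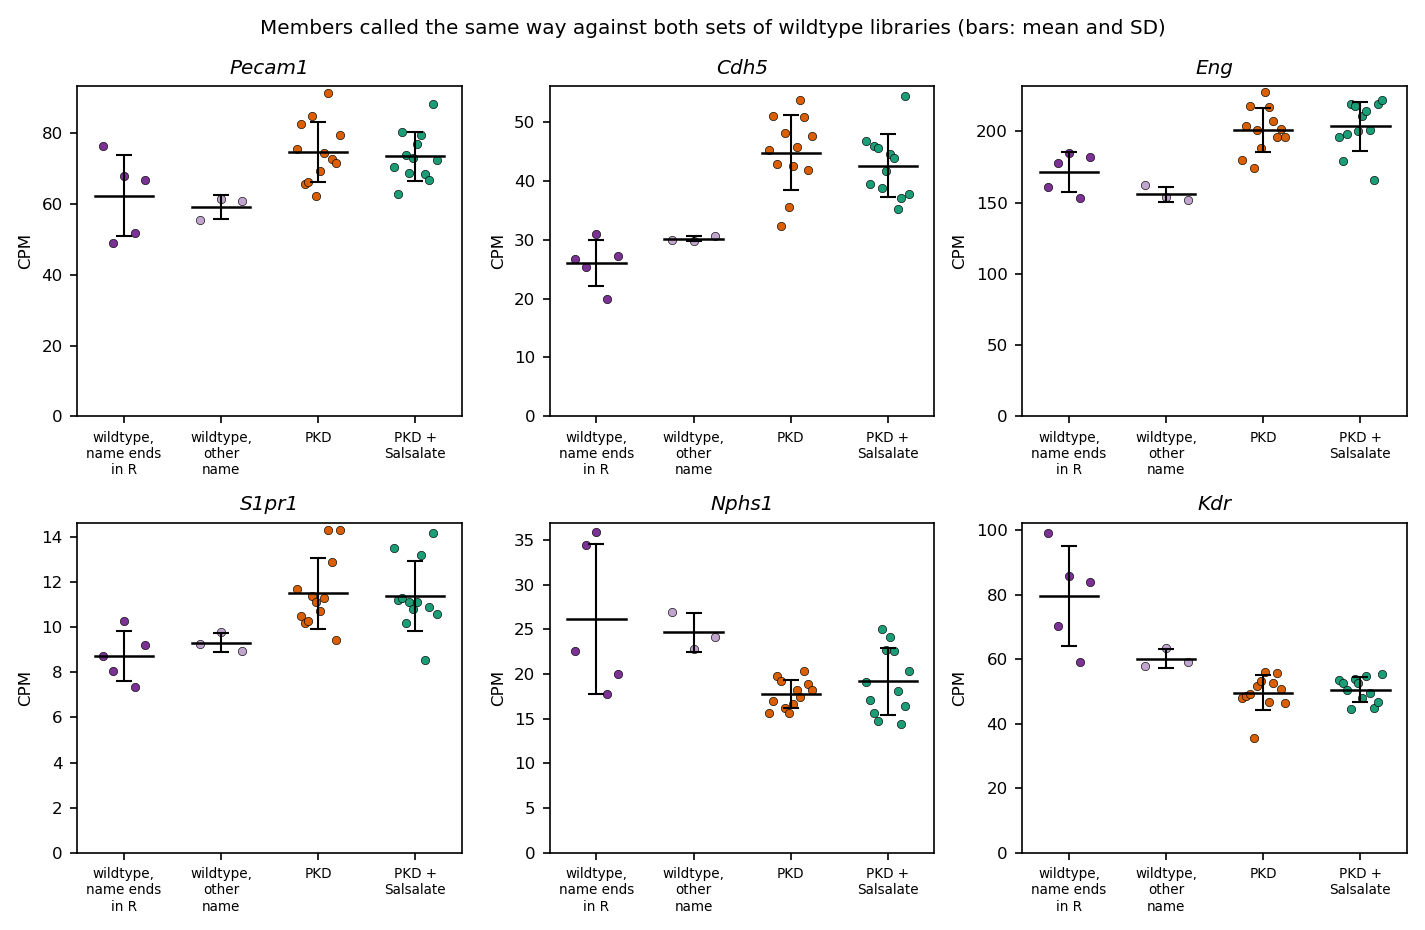
CPM of the 6 genes called in the same direction against both wildtype sets (y axes, starting at 0), with a point for each kidney and bars for mean and SD, in wildtype libraries with names ending in R (n = 5), other wildtype libraries (n = 3), PKD (n = 12) and PKD + Salsalate (n = 12). In the panels of Cdh5 and Kdr no PKD kidney overlaps with a wildtype kidney, and in the other panels some do.

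The other junction and surface genes were Pecam1, Plvap, Esam, Emcn and Cldn5. Pecam1, the adhesion molecule CD31, had 49.1, 61.2 and 76.3 CPM in wildtype and 62.4, 73.7 and 91.3 in PKD. The groups overlapped, and all 12 PKD kidneys lay above the wildtype median. Pecam1 rose by 0.29 ± 0.08 on the log2 scale (adjusted p = 0.00221), by 0.26 against the R-named set and by 0.33 against the plain-named set (adjusted p = 0.014 and 0.00593). Plvap had 131 to 180 CPM in the R-named set, 217, 228 and 216 in wildtype replicates 6 to 8, and 183, 239 and 278 in PKD. It rose by 0.42 ± 0.09 (adjusted p = 0.000286), and the difference was 0.63 against the R-named set (adjusted p = 3.96e-07) and 0.12 against the plain-named set, whose values lay inside the PKD range (adjusted p = 0.34). Esam, another endothelial adhesion molecule, rose by 0.12 ± 0.05 (adjusted p = 0.0456) and by 0.16 against the R-named set (adjusted p = 0.0223), with a difference of 0.05 against the plain-named set (adjusted p = 0.554). The call against all 8 was lost in 13 of 32 fits that left out a kidney, 5 of them wildtype (replicates 1, 2, 4, 5 and 8), 6 PKD (replicates 5, 7, 9, 10, 11 and 12) and 2 PKD + Salsalate (replicates 4 and 11), with an adjusted p of up to 0.108. Emcn, a sialomucin, differed by -0.11 (adjusted p = 0.177) and Cldn5, a tight junction protein, by -0.01 (adjusted p = 0.969).

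Of the receptors, Eng and S1pr1 rose against either wildtype set and Flt1 fell against the R-named set alone. Eng had 152, 161 and 185 CPM in wildtype and 174, 202 and 228 in PKD, overlapping at the edges, with a log2 difference of 0.28 ± 0.06 (adjusted p = 0.000235), of 0.23 against the R-named set and of 0.36 against the plain-named set (adjusted p = 0.00498 and 0.000642). S1pr1, the receptor through which sphingosine 1-phosphate tightens junctions, had 7.36, 9.06 and 10.3 CPM in wildtype and 9.42, 11.2 and 14.3 in PKD. Its log2 difference was 0.36 ± 0.09 (adjusted p = 0.000871), of 0.40 against the R-named set and of 0.30 against the plain-named set (adjusted p = 0.00184 and 0.0475).

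Flt1, the VEGF receptor that also acts as a decoy, had 127 to 177 CPM in the R-named set, 70.3, 74.1 and 74.3 in the plain-named set and 62.3, 78.3 and 116 in PKD. All PKD kidneys lay below the R-named set, and they covered the range of the plain-named set. Flt1 fell by 0.55 on the log2 scale against all 8 (SE 0.14, adjusted p = 0.00134) and by 0.86 against the R-named set (adjusted p = 1.76e-08), and the difference was 0.17 against the plain-named set (adjusted p = 0.279).

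Tek, Tie1, Robo4 and Ptprb did not pass against all 8 wildtype kidneys. Tek, the angiopoietin receptor TIE2, and Ptprb, the phosphatase VE-PTP that acts on it, were called in opposite directions by set. Tek fell by 0.28 against the R-named set (adjusted p = 0.000527) and rose by 0.17 against the plain-named set (adjusted p = 0.0336), with a difference of -0.12 against all 8 (adjusted p = 0.183) that passed without wildtype replicate 6. Ptprb fell by 0.18 against the R-named set (adjusted p = 0.0234) and rose by 0.38 against the plain-named set (adjusted p = 6.8e-05), where its values in that set (55.2 to 60.4 CPM) lay below all PKD kidneys (68.2 to 84.0 CPM). Robo4, an endothelial roundabout receptor, rose by 0.41 against the plain-named set (adjusted p = 0.00234) and differed by 0.17 against all 8 (adjusted p = 0.0766), passing without wildtype replicate 2 or 4, whereas Tie1, the orphan partner of TEK, differed by -0.01 (adjusted p = 0.856).

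Ehd3, a membrane trafficking protein found mainly in glomerular endothelium within the kidney, had 51.3, 60.2, 79.5, 89.6 and 100 CPM in the R-named set, 36.9, 37.1 and 42.2 in the plain-named set, and 27.5, 33.6 and 42.7 in PKD. The PKD kidneys overlapped with the plain-named set and lay entirely below the R-named set. It fell by 0.83 on the log2 scale (SE 0.14, adjusted p = 8.82e-06) and by 1.13 against the R-named set (adjusted p = 6.54e-10), and the difference was -0.16 against the plain-named set (adjusted p = 0.238). The log2 ratio of Plvap, an endothelial gene that Ehd3-rich glomerular capillaries largely lack, to Ehd3 was 1.06 ± 0.29 in the R-named set, 2.51 ± 0.07 in the plain-named set, 2.79 ± 0.26 in PKD and 2.80 ± 0.22 in PKD + Salsalate.

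Egfl7, a secreted matrix protein of endothelium, had 90.0 to 111 CPM in the R-named set, 54.4, 43.6 and 55.4 in wildtype replicates 6 to 8, and 45.3, 66.0 and 92.2 in PKD. PKD kidneys spanned the gap between the sets and overlapped with both. It fell by 0.34 on the log2 scale against all 8 (SE 0.14, adjusted p = 0.0403), a call lost in 10 of 32 fits that left out a kidney (wildtype replicates 1 to 5 and PKD replicates 2, 5, 7, 9 and 10), with an adjusted p of up to 0.121. Egfl7 fell by 0.64 against the R-named set (adjusted p = 4.55e-06) and rose by 0.34 against the plain-named set (adjusted p = 0.0486). Its exons overlap those of Gm20532 and Mir126a on the same strand. Nos3, the endothelial nitric oxide synthase, differed by 0.15 (adjusted p = 0.136, and it passed as higher without wildtype replicate 2), Vwf by -0.04 (adjusted p = 0.758) and Sema3g, a secreted semaphorin, by -0.06 (adjusted p = 0.618). Against the plain-named set Nos3 rose by 0.34 (adjusted p = 0.0145) and Sema3g fell by 0.35 (adjusted p = 0.00339).

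Erg (chr16:95160028-95387452 on GRCm39, gene ID ENSMUSG00000040732), the ETS factor that maintains endothelial identity, had the largest difference among the 32 genes and was also the gene on which the wildtype sets differed most. It had 45.3, 46.3, 74.7, 80.4 and 82.8 CPM in the R-named set, 14.9, 18.0 and 19.2 in the plain-named set, and 16.8, 22.4 and 26.4 in PKD. The PKD kidneys lay entirely below the first set and overlapped with the upper end of the second. Against all 8 wildtype kidneys Erg fell to a fold of 0.465, a log2 difference of -1.11 ± 0.22 (adjusted p = 7.99e-05). Against the R-named set it fell by 1.58 (adjusted p = 2.67e-12), and against the plain-named set it rose by 0.32 (adjusted p = 0.0327). Sox18 rose by 0.26 ± 0.10 (adjusted p = 0.0236), by 0.40 against the plain-named set (adjusted p = 0.00931), with a difference of 0.18 against the R-named set (adjusted p = 0.18), and its adjusted p was 0.0648 without wildtype replicate 4 and 0.0506 without wildtype replicate 8. Its relative Sox17 differed by -0.05 (adjusted p = 0.662).

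**Figure D2:**
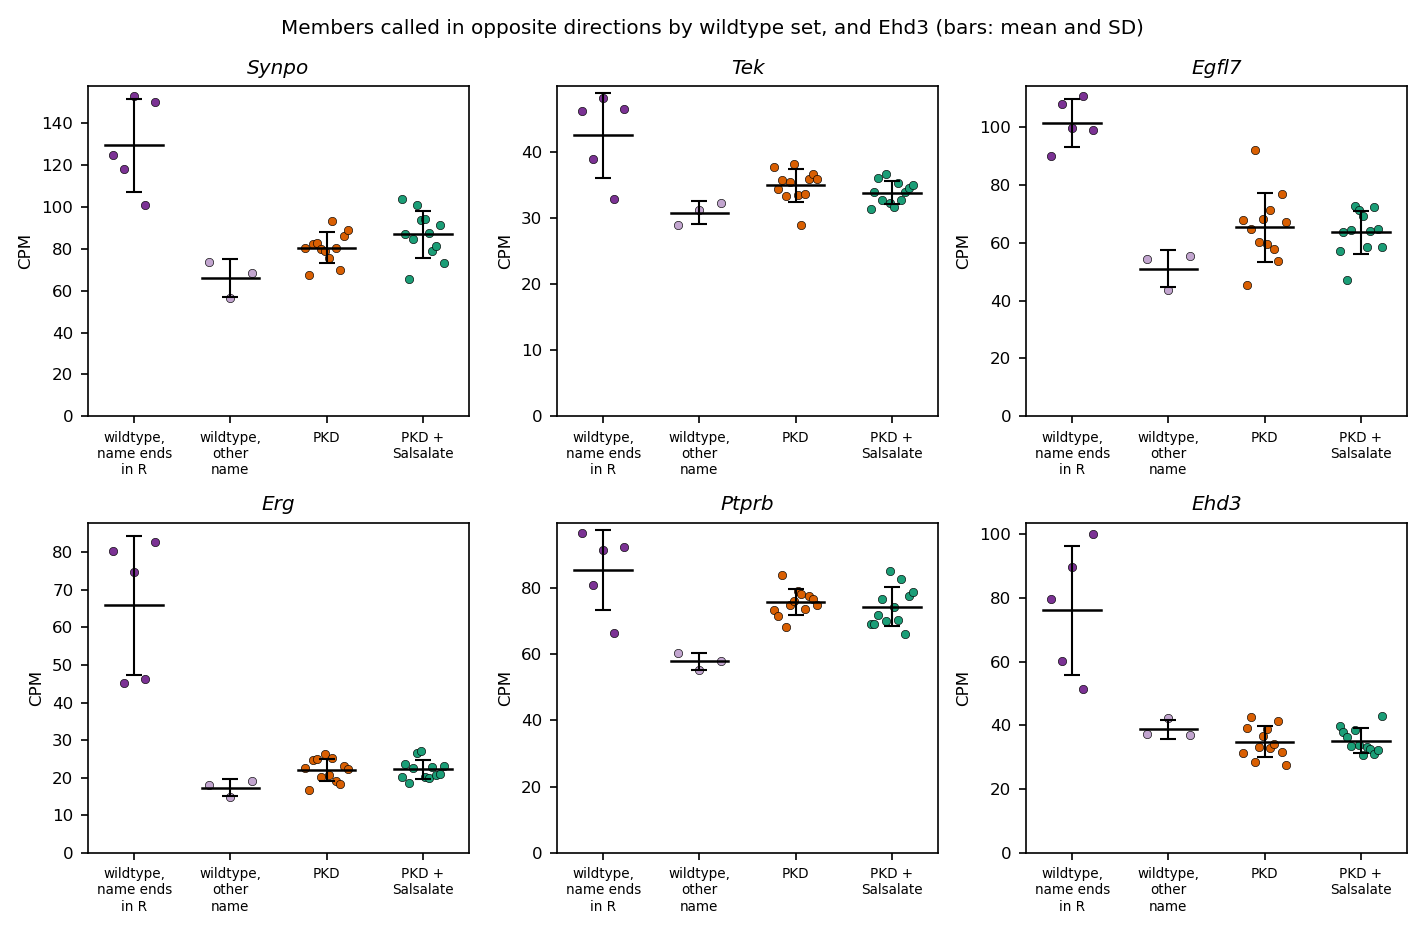
CPM of the 5 genes called in opposite directions in PKD by wildtype set, and of Ehd3, with a point for each kidney and bars for mean and SD (y axes start at 0). The wildtype libraries ending in R (n = 5) have higher means than the other wildtype libraries (n = 3) in all 6 panels, and the PKD (n = 12) and PKD + Salsalate (n = 12) means lie between them except for Ehd3. Because the 5 genes were picked for opposite calls in PKD, the place of their PKD means follows from that choice.

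By wildtype set, 6 of the 32 genes rose and 12 fell in PKD against the R-named set, where 30.7% of all genes tested rose and 28.9% fell. Against the plain-named set 13 rose and 4 fell, where 20.9% of all genes rose and 19.9% fell. The endothelial genes went from 6 risen and 7 fallen against the first set to 11 risen and 2 fallen against the second. Called higher against both sets were 4 genes (Pecam1, Cdh5, Eng and S1pr1), where 11.5% of the 13844 genes tested in both fits were, and called lower against both were 2 (Nphs1 and Kdr), where 8.06% were. These counts of 4 and 2 lie near the shares of all genes, and both fits use the same PKD kidneys. Opposite calls were made for 5 genes (Synpo, Tek, Egfl7, Erg and Ptprb), where 6.30% of all genes had them. Wt1, Plce1, Magi2, Flt1, Ehd3, Plvap and Esam were called against the R-named set only, and Podxl, Cd2ap, Sox18, Nos3, Robo4 and Sema3g against the plain-named set only. The remaining 8 genes (Ptpro, Clic5, Thsd7a, Tie1, Emcn, Vwf, Cldn5 and Sox17) were called against neither.

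**Figure D3:**
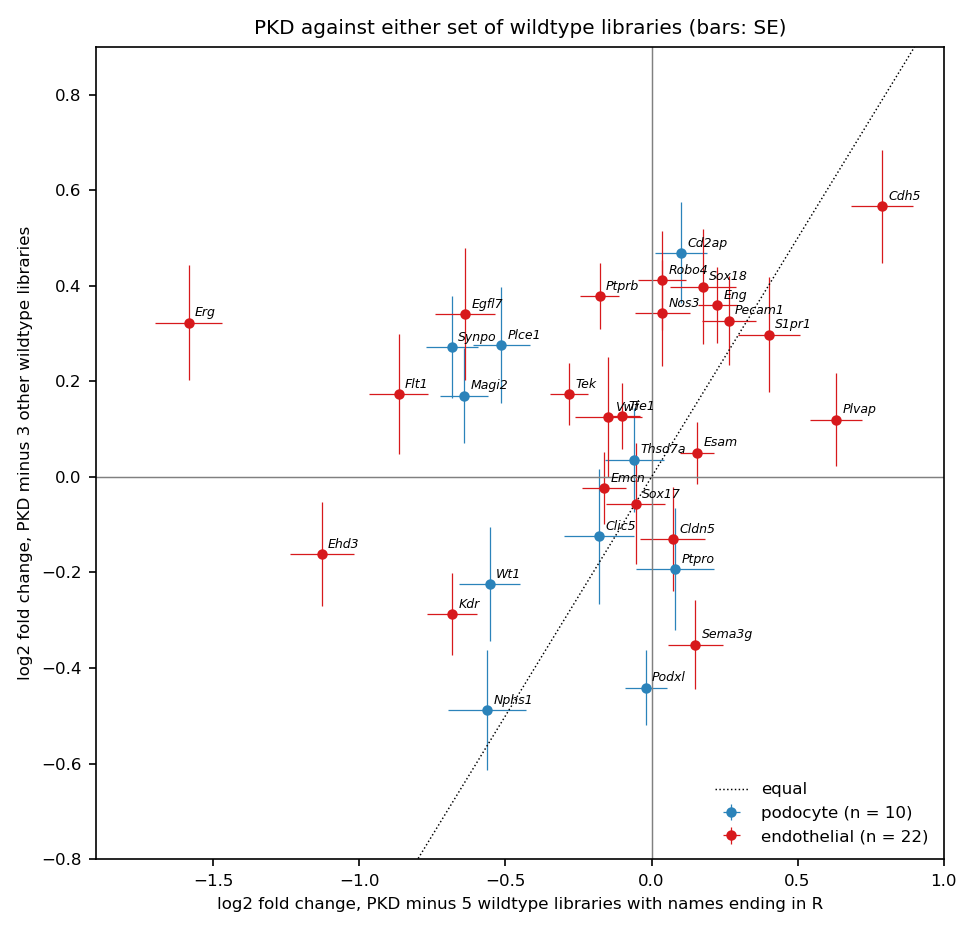
Log2 difference of PKD against the 5 wildtype libraries with names ending in R (x axis) and against the 3 others (y axis) for the 32 genes, with SE bars and a dotted line of equal values, podocyte genes in blue (n = 10) and endothelial genes in red (n = 22). Cdh5 lies highest near the line, Nphs1 lies lowest near it, and Erg lies at -1.58 on the x axis and 0.32 on the y axis; both axes use the same PKD kidneys.

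Within a kidney the podocyte and endothelial genes were summarised by the median of their log2 levels relative to the wildtype mean. The podocyte median was -0.02 to 0.46 in the R-named set, with the highest value in wildtype replicate 3, and -0.17 to -0.11 in the plain-named set. It was -0.30 to -0.11 in PKD (median -0.21) and -0.35 to 0.00 in PKD + Salsalate (median -0.20). The endothelial median was -0.16 to 0.19, -0.20 to -0.12, -0.03 to 0.19 and -0.13 to 0.16 in the same order. PKD kidneys thus lay below the R-named set on the podocyte median and overlapped with the plain-named set, and lay above that set on the endothelial median and overlapped with the R-named set.

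**Figure D4:**
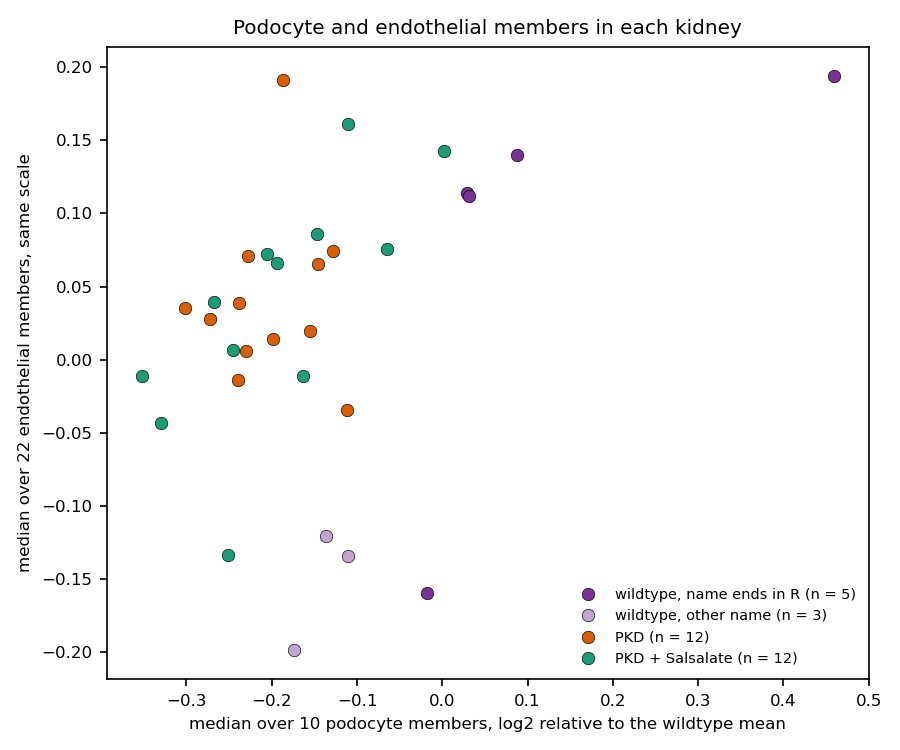
Median log2 level of the 10 podocyte genes (x axis) and of the 22 endothelial genes (y axis) in each of the 32 kidneys, relative to the wildtype mean, coloured by group and wildtype set. The other wildtype libraries (n = 3) lie low, between -0.20 and -0.12 on the y axis, and between -0.17 and -0.11 on the x axis. The PKD kidneys (n = 12) lie between -0.30 and -0.11 on the x axis, a range that holds those libraries.

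Salsalate for 2 weeks was not followed by a change in any of the 32 genes that passed the test. Per the paper, the mice of both PKD groups were picked after treatment for a comparable, mild ratio of kidney to body weight. The result therefore covers kidneys matched for size, and the PKD group is not a sample of all mice of the model. In PKD + Salsalate against PKD kidneys, 0 genes rose and 0 fell by edgeR's quasi-likelihood test, and 0 by DESeq2 and by limma-voom, where 0.251% of all genes tested rose and 0.329% fell, and 1 of the 32 had an unadjusted p under 0.05. The groups overlapped for all 32 genes, where 0.0215% of all genes tested were higher and 0.00716% lower without overlap. The log2 differences lay between -0.13 (Clic5) and 0.17 (Sema3g), with a median of 0.03 for the podocyte genes, -0.02 for the endothelial genes and -0.01 for all genes tested. Sema3g, the gene with the unadjusted p under the threshold, had 27.5, 34.1 and 38.4 CPM in PKD and 31.5, 36.6 and 46.9 in PKD + Salsalate. The groups overlapped and 11 of 12 PKD + Salsalate kidneys lay above the PKD median, with a log2 difference of 0.17 ± 0.08 (95% interval 0.01 to 0.34, adjusted p = 0.462). For Nphs1 the values in PKD + Salsalate were 14.4, 18.6 and 25.1 CPM, a log2 difference of 0.11 (95% interval -0.10 to 0.32, adjusted p = 0.802). For Cdh5 they were 35.2, 42.7 and 54.4 (difference -0.08, 95% interval -0.23 to 0.08, adjusted p = 0.827), and for Kdr 44.5, 51.4 and 55.3 (difference 0.03, 95% interval -0.13 to 0.18, adjusted p = 0.952). The intervals ran from that of Esam (-0.10 to 0.08), the narrowest of the 32, to that of Erg (-0.39 to 0.41), the widest, and changes within the interval of a gene are not shown to be absent.

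**Figure D5:**
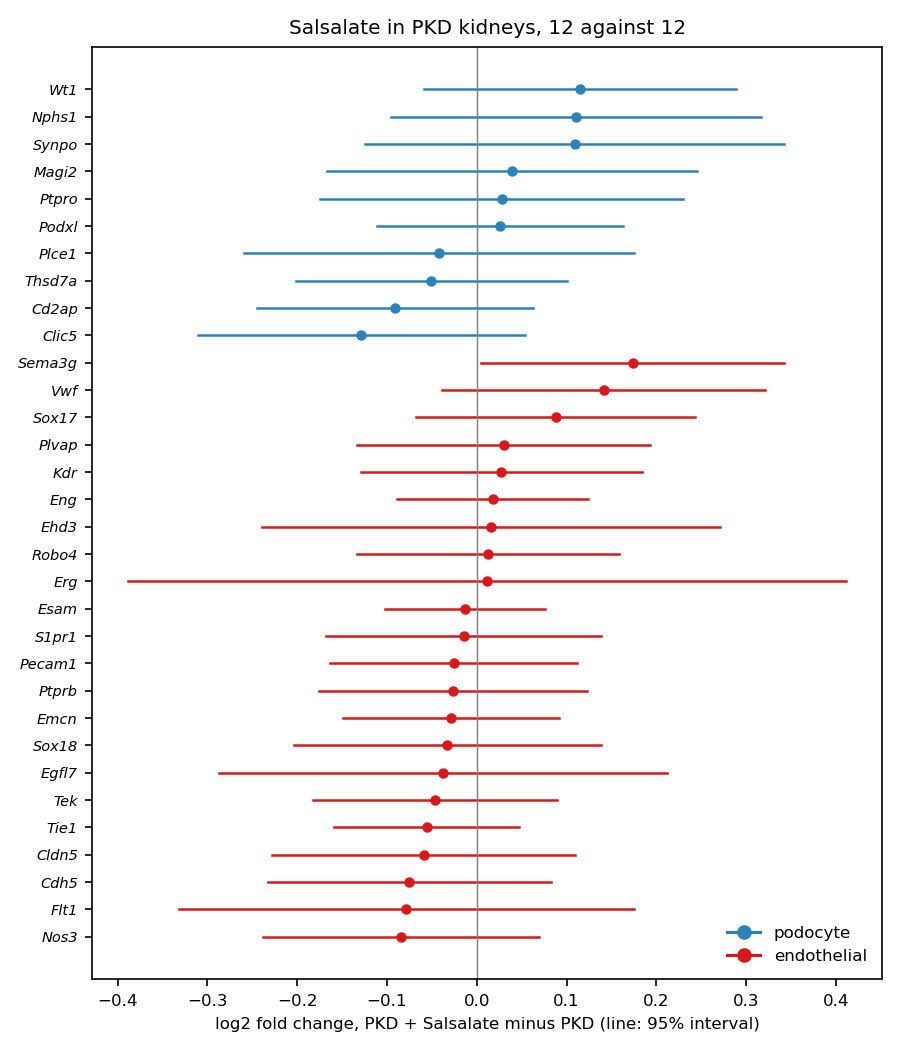
Log2 difference between PKD + Salsalate (n = 12) and PKD (n = 12) for the 32 genes (x axis), with lines for 95% intervals, podocyte genes above and endothelial genes below, each ordered by value. Points lie between -0.13 and 0.17, and of the intervals only that of Sema3g (0.01 to 0.34) does not cross zero.

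Against all 8 wildtype kidneys, 5 of the 32 genes were higher in PKD + Salsalate (Pecam1, Cdh5, Plvap, Eng and S1pr1), where 21.8% of all genes tested were higher, and 10 were lower (Nphs1, Wt1, Plce1, Magi2, Clic5, Kdr, Flt1, Ehd3, Egfl7 and Erg), where 23.2% were lower. This comparison uses the same wildtype kidneys as that of PKD. Cdh5 was 0.63 higher on the log2 scale (adjusted p = 9.55e-07) and Kdr was at -0.51 (adjusted p = 1.01e-05), both again without overlap (4.46% of all genes tested were higher and 1.93% lower in this way), and Nphs1 was at -0.42 (adjusted p = 0.00285). Against the R-named set 7 genes were higher and 15 lower, where 29.7% and 28.4% of all genes were, and against the plain-named set 9 were higher and 3 lower, where 18.3% and 16.5% were. Pecam1, Cdh5, Eng, Nphs1 and Kdr passed against either set, whereas S1pr1 was called against the R-named set and differed by 0.29 against the plain-named set (adjusted p = 0.0604). The calls on Magi2 (without wildtype replicate 1 or 3), Clic5 (without wildtype replicate 3), Egfl7 (without wildtype replicate 2, 3, 4 or 5) and Plce1 (without wildtype replicates 1 to 5, PKD replicates 3 or 7 to 12, or PKD + Salsalate replicates 1, 2, 3, 7, 8, 9 or 12) did not hold when a kidney was left out, with adjusted p of up to 0.0675, 0.0545, 0.0817 and 0.165. Conversely, Podxl, Synpo, Tek, Emcn, Esam, Sox18 and Robo4 were not called against all 8 and passed in 1 to 12 of the 32 fits that left out a kidney, most often Sox18 (adjusted p = 0.0503 with all kidneys).

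Other genes of these cells and of their signals were counted from lists of markers, to be read beside the shares of all genes tested that rose and fell: 24.1% and 25.0% against all 8 wildtype kidneys, 30.7% and 28.9% against the R-named set, and 20.9% and 19.9% against the plain-named set. Of 18 further podocyte genes tested, 4 rose and 11 fell in PKD against all 8 wildtype kidneys, 4 and 9 of 17 against the R-named set and 3 and 5 of 17 against the plain-named set. Cdkn1c, a cell cycle inhibitor of mature podocytes, fell by 0.43 (adjusted p = 0.000241) and Dach1, a podocyte transcription factor, fell by 0.51 (adjusted p = 0.000342; difference -0.17 against the plain-named set, adjusted p = 0.324), whereas Kirrel, the nephrin-related protein NEPH1, rose by 0.93 (adjusted p = 1.01e-07). Salsalate was followed by a difference of 0.57 in Tdrd5 and of 0.30 in Rhpn1, which did not pass (adjusted p = 0.0657 and 0.114).

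Of 20 further endothelial genes, 6 rose and 3 fell against all 8, 6 and 4 against the R-named set, and 11 and 0 against the plain-named set. Myct1 rose by 0.73 (adjusted p = 2.71e-07), Cd34, a sialomucin of capillary endothelium, by 0.61 (adjusted p = 4.44e-07) and Gpihbp1, which carries lipoprotein lipase in capillaries, by 0.46 (adjusted p = 2.98e-05), and each rose against either set. Among 11 arterial, venous and tip cell genes tested, 3 rose and 1 fell, with Aplnr, the apelin receptor, at 0.96 (adjusted p = 8.97e-06; 0.56 against the plain-named set, adjusted p = 0.0208), its ligand Apln at 0.50 (adjusted p = 0.00687; 0.26 against the plain-named set, adjusted p = 0.326) and the kinase Bmx at -0.59 (adjusted p = 0.00935; -0.91 against the R-named set, adjusted p = 0.000116, and too low to be tested in the fit with the plain-named set). After salsalate the smallest adjusted p of these lists were those of Apold1 (difference -0.43, adjusted p = 0.363), Myct1 (-0.19, adjusted p = 0.392), Gja5 (-0.22, adjusted p = 0.472) and Efnb2 (-0.12, adjusted p = 0.655).

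Of 15 vascular ligands and co-receptors tested, 8 rose and 0 fell against all 8 wildtype kidneys, and 9 rose and 1 fell against either set. Edn1, the vasoconstrictor endothelin 1, had 1.70 ± 0.385 CPM in wildtype (n = 8) and 4.44 ± 0.395 in PKD (n = 12), a log2 difference of 1.38 (adjusted p = 2.99e-09). The groups did not overlap, where 5.21% of all genes tested were higher in this way. Its wildtype mean lay under the filter level of log2 CPM 1. Edn1 thus passed the filter because of its level in PKD and PKD + Salsalate kidneys, and its p-value and separation are no independent support. Slit3, a ligand of roundabout receptors, rose by 1.05 (adjusted p = 1.53e-07) and Sphk1, which makes sphingosine 1-phosphate, by 0.71 (adjusted p = 2.79e-06). The ligands of the receptors above fall outside the rule for named genes and were chosen after their values were seen. Vegfa rose by 0.27 (adjusted p = 0.0341), by 0.57 against the R-named set (adjusted p = 1.9e-06), with a difference of -0.13 against the plain-named set (adjusted p = 0.245). The angiopoietins Angpt1 and Angpt2 differed by -0.16 and -0.13 (adjusted p = 0.269 and 0.298). After salsalate, Vegfb differed by 0.22 and Angpt2 by 0.13 (adjusted p = 0.0769 and 0.69), where 0 of the 15 genes passed.

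Markers of other cells that share genes with these lists moved between wildtype and PKD as well. All 5 leukocyte genes tested rose (Cd3e and Cd79a were too low to be tested), among them Ptprc, the pan-leukocyte antigen CD45, by 1.34 (adjusted p = 1.65e-09), and the summed level of the list was 84.5 to 123 CPM in wildtype, 158 to 203 in PKD and 139 to 219 in PKD + Salsalate. Pecam1 and Cd34 are also expressed by blood cells. All 4 red cell genes fell, and Hba-a1 fell by 1.99 (adjusted p = 1.59e-08), with summed levels of 232 to 764, 43.8 to 161 and 69.6 to 302 CPM. All 4 genes listed for the parietal epithelium of the glomerular capsule rose, with Cldn1 at 1.76 (adjusted p = 5.05e-09), and 3 of these rose against the plain-named set. Their summed levels were 237 to 281 CPM in the R-named set and 508, 582 and 510 in wildtype replicates 6 to 8. They were 440 to 730 in PKD, a range that holds the plain-named set, and 440 to 642 in PKD + Salsalate. Whether parietal cells were the source of these transcripts was not tested. The part of these cells in the differences of the 32 genes was not tested.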

How the data were processed

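Poly(A)-selected, strand-specific RNA-seq was done on 32 kidneys of male mice (8 wildtype, 12 PKD, 12 PKD + Salsalate). Per the labels and the study's methods, the authors demultiplexed reads with bcl2fastq 2.20, trimmed them with Cutadapt 2.10, aligned them to GRCm39 with STAR 2.7.5a and counted them per gene by strand with HTSeq 0.12.4, and they deposited raw read counts that were not normalized. Counting by strand separates opposite-strand overlaps but not the same-strand overlaps of 2 of the 32 genes. Lines of reads assigned to no single gene held 16.9 to 26.4% of the table's counts per library and were left out. Of the 53700 gene IDs, 52610 were found in the GENCODE annotation used here for symbols, positions and exon lengths. The depth was 11193136 to 109807664 counts per library. For the genes with the lowest counts, such as Wt1, Thsd7a and Ptpro, counting error in the shallowest library is about as large as the spread between kidneys.

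Genes with log2 CPM over 1 in at least 25% of kidneys were kept, TMM factors were computed, and 1 model over the 3 groups was tested by the quasi-likelihood method of edgeR (edgeR 4.0.16, R 4.3.3), 2-sided, with Benjamini-Hochberg adjustment over all genes tested and a threshold of 0.05. SE are those of the log2 difference. Library names split the wildtype group, so wildtype comparisons were refitted with either set of wildtype libraries. The script was tested on simulated data. The 32 genes, the other lists (further podocyte and endothelial genes, arterial, venous and tip, ligands and co-receptors, endothelial adhesion, lymphatic, mesangial, pericyte and smooth muscle, parietal, proximal tubule, loop, distal and collecting duct, leukocyte, red cell, liver and injured tubule) and the rule for named genes were chosen with earlier results of these data known. The rule named all 32 genes, Pkd1, and of each other list at most the 3 genes tested with the smallest adjusted p in PKD against wildtype and at most the 2 in PKD + Salsalate against PKD, besides the defining marker of a cell type whose list moved with a result. Alternatives were DESeq2 1.42.0 size factors and Wald test, upper-quartile factors, limma-voom (limma 3.58.1), other filters, a fit of 2 groups only, a replicate block and each kidney left out. Nothing in the labels ties equal replicate numbers of different groups. The main fit therefore has no block.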

Additional observations from a re-analysis of the deposited data

Results flagged for a closer look

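Within groups of 4 to 10 kidneys, a value was singled out when its distance to the nearest other kidney, divided by the range of the group, exceeded Dixon's critical value, 0.526 for the 8 wildtype kidneys. Of the 32 genes tested, 1 was singled out. Thsd7a, which encodes a podocyte membrane protein, had 9.57 CPM in wildtype replicate 3, where the nearest kidney had 7.14, a gap of 0.713 of the range. Chance gives such a value in about 1 in 20 groups. The same kidney had the highest podocyte median of all kidneys (0.46 on the log2 scale relative to the wildtype mean).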

How the results depend on the processing

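Of the counts of genes called, the following moved by over 1.5 times. In PKD against wildtype, 5 genes were called higher when only these 2 groups were fitted, 5 with the replicate block, 13 against the plain-named wildtype set (4 lower), and 5 to 9 when a kidney was left out, the 5 without wildtype replicate 8. In PKD + Salsalate against wildtype, 8 were higher with upper-quartile factors, 9 were higher and 3 lower against the plain-named set, and 6 to 13 were lower when a kidney was left out, the 6 without wildtype replicate 3. All other counts stayed within 1.5 times, and the counts in PKD + Salsalate against PKD were 0 in all settings. Over all genes tested (13883 to 14088 in these fits), 6852 were called in PKD against wildtype in the main fit. Fitting these 2 groups only gave 6093, the plain-named set 5660 and leaving out wildtype replicate 8 gave 7102. In PKD + Salsalate against wildtype, 6269 were called in the main fit and 6257 with upper-quartile factors. The plain-named set gave 4844 there, and leaving out wildtype replicate 3 gave 5822.

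Log2 differences in PKD that changed sign were as follows. Against the plain-named set they were 0.27 for Synpo, 0.28 for Plce1, 0.17 for Magi2, 0.036 for Thsd7a, 0.17 for Flt1, 0.17 for Tek, 0.13 for Tie1, 0.13 for Vwf, 0.34 for Egfl7 and 0.32 for Erg. Against the R-named set they were 0.081 for Ptpro, 0.073 for Cldn5, -0.18 for Ptprb and 0.15 for Sema3g. The rest were genes near 0 in the fit reported, and none passed. With upper-quartile factors they were 0.0093 for Thsd7a, 0.013 for Tie1 and 0.024 for Cldn5, with limma-voom 0.0040 for Ptpro and 0.0044 for Thsd7a, and without a filter 0.0037 for Tie1 and 0.0078 for Cldn5. With the replicate block they were 0.0014 for Ptpro, 0.020 for Thsd7a, 0.0009 for Tie1 and 0.0012 for Cldn5, and Ptprb was -0.0023 with DESeq2 size factors and -0.0013 with the DESeq2 Wald test. With a kidney left out the ranges were -0.10 to 0.041 for Ptpro, -0.047 to 0.052 for Thsd7a, -0.038 to 0.016 for Tie1, -0.094 to 0.031 for Vwf, -0.059 to 0.053 for Cldn5 and -0.041 to 0.072 for Ptprb. The cause was not tested.

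The replicate block left 5 genes higher and 7 lower in PKD against wildtype, and 5 and 8 in PKD + Salsalate against wildtype. Fewer of all 13961 genes tested were called with the block as well. They were 5839 in the first comparison, against 6852 in the main fit, and 5392 in the second, against 6269. Correlations gave no sign that the numbers pair the kidneys, which they cannot exclude. Deviations from the group means of equal numbers correlated over 0.1 in 2 of 12 pairs of PKD and PKD + Salsalate, 3 of 8 of wildtype and PKD and 3 of 8 of wildtype and PKD + Salsalate, and a kidney correlated best with its own number in 1, 1 and 0 of them. The wildtype set was the choice that moved the most calls. Its 3 and 5 kidneys limit the precision of either set, the labels do not explain the letter R, and age and tamoxifen cannot be told apart from the deletion.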

Other observations

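Other cells of the vessel wall and of the glomerulus also differed between wildtype and PKD kidneys. Of 12 mesangial, pericyte and smooth muscle genes, 5 rose and 2 fell in PKD against all 8 wildtype kidneys, 5 and 4 against the R-named set, and 6 and 0 against the plain-named set (24.1% of all genes tested rose and 25.0% fell against all 8, 30.7% and 28.9%, and 20.9% and 19.9% against the sets). Acta2, smooth muscle actin, had 36.7 ± 6.97 CPM in wildtype (n = 8) and 94.3 ± 11.9 in PKD (n = 12), a log2 difference of 1.36 (edgeR adjusted p = 6.64e-12). Tagln, another contractile gene, rose by 1.33 (edgeR adjusted p = 1.05e-09) and Notch3, a receptor of mural cells, by 1.23 (edgeR adjusted p = 1.22e-09). All of these were without overlap, where 5.21% of all genes tested were higher in this way. They were named for having the smallest adjusted p of the list, so their separation does not describe the list. Both endothelial adhesion genes tested rose, Icam1 by 0.88 (edgeR adjusted p = 5.69e-10) and Vcam1 by 1.71 (edgeR adjusted p = 2.17e-08), and Vcam1 also stands in the list of injured tubule genes. Of 3 lymphatic genes tested, 1 rose (Pdpn, by 1.68, also made by podocytes) and 1 fell (Prox1, which fell by 0.43). None of these lists had a gene that passed in PKD + Salsalate against PKD, by the same test.

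Among epithelial lists, all 6 injured tubule genes rose in PKD, Lcn2 by 4.68 (edgeR adjusted p = 9.49e-15), with summed levels of 235 to 504 CPM in wildtype, 1220 to 2680 in PKD and 1050 to 3520 in PKD + Salsalate. Of 8 loop, distal and collecting duct genes 0 rose and 4 fell, with 3 and 4 against the R-named set and 0 and 6 against the plain-named set. Of 8 proximal tubule genes 2 rose and 3 fell, with 5 and 2 against the R-named set and 0 and 5 against the plain-named set. The counts of these lists are to be read beside the shares of all genes tested. Against all 8 wildtype kidneys 24.1% of all genes rose and 25.0% fell. The shares were 30.7% and 28.9% against the R-named set, and 20.9% and 19.9% against the plain-named set. Of 5 liver genes 3 rose and 0 fell, with 2 and 0 against the R-named set and 1 and 0 against the plain-named set. Their summed level was 3550 CPM in PKD replicate 10 against a PKD median of 53.0, and the DESeq2 Wald test called 1 higher and 3 lower. Leaving out PKD replicate 10 kept the calls on Nphs1, Cdh5 and Kdr, and those on Esam and Egfl7 were lost (edgeR adjusted p = 0.0721 and 0.0614). Without that kidney 7 of the 32 genes rose and 9 fell, where 6702 of 13948 genes tested were called. With all kidneys kept, 1 of the 5 liver genes was lower in PKD + Salsalate against PKD (edgeR adjusted p = 0.0146).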
